A study of Caenorhabditis elegans with 2 samples.

Results

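Of 1262 reproducible binding peaks of the transcription factor ELT-3, 333 lay between genes and away from promoters, and these distal intergenic peaks are described here. ELT-3 is a zinc finger protein of the GATA family that acts in the epidermis of the worm Caenorhabditis elegans. GATA factors bind short DNA elements with the core letters GATA. In this compact genome most known control elements lie just upstream of a gene, and sites farther out, between genes, are a less described class. Such distal elements can act on a neighbouring gene or on one beyond it, and a peak alone does not say which.

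The peaks came from chromatin immunoprecipitation sequencing (ChIP-seq) of whole larvae of the first stage (L1), of mixed sex, in 1 group of 2 biological replicates. The worms were of strain OP75, genotype unc-119(ed3) III; wgIs75, in which a transgene adds ELT-3 fused at its C-terminus to GFP and FLAG. The strain therefore carries an added elt-3 copy, whole larvae mix the epidermis with all other tissues, and there was no second condition. The labels name the antibody by elt-3 and do not say whether it bound the tag or the protein. The authors' reproducibility threshold kept the 1262 peaks from the pooled replicates. The summits of the 333 distal intergenic peaks lay in no annotated gene of any kind and outside every promoter window. That window reached 1000 bp upstream and 250 bp downstream around the start of each protein-coding transcript (Ensembl annotation of assembly WBcel235, genome build ce11). The choice used position alone, and no measured value. The 622 promoter peaks and the 238 intronic peaks of the same set served for comparison, and the other 69 lay in exons or in other genes.

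The strongest distal peaks with and without the GATA element are shown first, because they carry the contrast that runs through the class. The element searched, on both strands, was WGATAR. It has 4 forms, of which the first is AGATAA and reads TTATCT on the opposite strand. The next form is AGATAG, whose reverse complement reads CTATCT. A further form is TGATAA, which appears as TTATCA when read from the other strand. The last form, TGATAG, is written CTATCA in the reverse direction. Each sequence below holds the 101 bases centred on a summit, on the plus strand of ce11 from the RefSeq assembly WBcel235, and capitals mark WGATAR on either strand. Each is named by the protein-coding gene with the nearest start. The first 4 are the strongest distal peaks with the element, with mstr-1 not shown.
Y37A1A.2 (chrIV:13919351-13919451): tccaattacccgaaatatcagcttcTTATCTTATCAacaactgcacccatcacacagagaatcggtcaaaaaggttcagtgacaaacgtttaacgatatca
R08D7.7 (chrIII:8986980-8987080): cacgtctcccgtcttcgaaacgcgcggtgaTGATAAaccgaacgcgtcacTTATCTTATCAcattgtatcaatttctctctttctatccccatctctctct
R03E9.2 (chrX:6736430-6736530): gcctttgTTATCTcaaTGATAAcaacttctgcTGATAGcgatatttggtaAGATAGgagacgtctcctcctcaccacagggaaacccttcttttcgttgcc
Y37D8A.5 (chrIII:12849268-12849368): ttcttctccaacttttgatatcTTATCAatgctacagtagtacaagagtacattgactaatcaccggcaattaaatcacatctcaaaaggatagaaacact
The next 3 are the strongest distal peaks without the element.
ekl-5 (chrX:13920518-13920618): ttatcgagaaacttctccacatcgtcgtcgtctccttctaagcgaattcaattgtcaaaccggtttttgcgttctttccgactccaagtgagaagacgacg
F55G7.5 (chrX:11937499-11937599): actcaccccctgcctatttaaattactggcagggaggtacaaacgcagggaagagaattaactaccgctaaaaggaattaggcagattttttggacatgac
ins-13 (chrII:5543496-5543596): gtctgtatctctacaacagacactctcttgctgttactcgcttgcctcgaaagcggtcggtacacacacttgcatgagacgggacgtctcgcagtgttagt
The last is the strongest of the 3 windows with 5 copies of the element, the most in any, beside zig-13, a gene for a protein with immunoglobulin domains.
zig-13 (chrIII:154319-154419): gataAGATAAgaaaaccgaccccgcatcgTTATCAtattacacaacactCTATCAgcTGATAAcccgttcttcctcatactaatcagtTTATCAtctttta
The Y37A1A.2 and R08D7.7 windows each hold 2 elements that overlap by their end base. The R03E9.2 window holds 4 elements, and another window with 5 was nearest to nhr-48 (signal 103.1).

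Signal, the strength the authors' caller gave each peak, is on a scale the sources used here do not state, so it ranks peaks within a list. Distal peaks had a median signal of 58.8 (quartiles 50.1 and 74.5) and ran from 42.9 to 195.0. Their strongest member, upstream of Y37A1A.2 on IV (13919359 to 13919454), ranked 11 of all 1262 peaks. In the separate replicate lists it had a signal of 119.6 and rank 5 in replicate 1, and 75.2 and rank 25 in replicate 2. The peak upstream of R08D7.7 (III:8986902 to 8987157, signal 190.2) ranked 14 in replicate 1 and 17 in replicate 2. The R03E9.2 peak (X:6736352 to 6736607, signal 171.3) ranked 17 and 14. All of these were high in both replicates. The ekl-5 peak (X:13920440 to 13920695, signal 184.0) ranked 21 in replicate 1 and 8 in replicate 2. It lies within 50 kb of elt-3 (X:13934874 to 13941216), a locus that the transgene adds to, and whether the transgene covers this peak was not tested. One other distal peak lay that close, nearest to hlb-1 (signal 49.6), among 9 peaks of all classes within 50 kb.

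The 20 strongest distal peaks are given here by the gene with the nearest start. The peak at die-1, for a zinc finger factor required for movements of epidermal cells in the embryo, lay 6298 bp upstream of the nearest start and had a signal of 132.5 (ranks 34 and 85 in replicates 1 and 2). Others lay nearest to plin-1, for the lipid droplet protein perilipin (125.0, ranks 19 and 157), and xdh-1, for xanthine dehydrogenase (110.4, ranks 57 and 145). Further peaks were nearest to ins-13, for an insulin-like peptide (115.2, ranks 52 and 138), and the nuclear hormone receptor gene nhr-162 (131.4, ranks 100 and 24). The peaks at idpb-4 (131.1) and zig-13 (131.1) had 4 and 5 copies of WGATAR. The others were nearest to mstr-1 (157.2), Y37D8A.5 (147.8), irld-18 (143.1), F55G7.5 (131.2), gtr-1 (112.6), T07E3.4 (110.8), sdz-19 (110.4), nspe-7 (107.7) and T14G12.12 (106.1). Of these 20 peaks, 14 carried WGATAR, 6 were on X and 12 lay upstream of the nearest start. The shares in all 333 distal peaks were 56.8%, 24.9% and 71.2%. The weakest rank among them was 145 in replicate 1 and 157 in replicate 2.

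**Figure D1:**
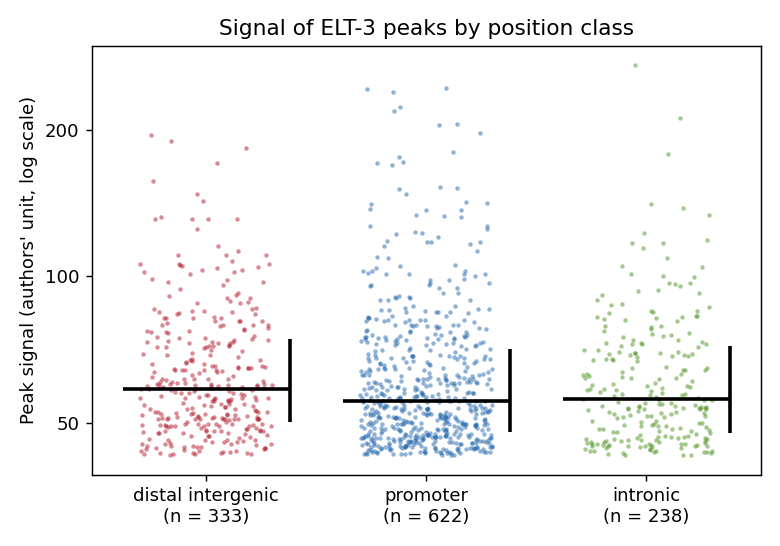
Signal of each thresholded peak in the authors' unit (log axis) for the 333 distal intergenic, 622 promoter and 238 intronic peaks; points are peaks, horizontal bars are medians and vertical bars span the quartiles. The classes overlap over nearly their whole range, with medians of 58.8, 55.4 and 55.9.

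Distal peaks were set against promoter and intronic peaks to ask whether position goes with strength. Of the distal peaks, 184 of 333 (55.3%, Wilson interval 49.9 to 60.5%) had a signal above the median of the whole set, 56.3, against 294 of 622 promoter peaks (47.3%, 43.4 to 51.2%). The share in all 1262 peaks is 50% by construction. The difference of 7.99 percentage points missed the threshold (Fisher's exact test, p = 0.0209, and 0.0558 adjusted by Benjamini-Hochberg over the 8 comparisons of peak classes). It passed with a wider promoter window (exact adjusted p = 0.0191), and among the strongest peaks of replicate 2 alone it was -0.505 points (0.892). Intronic peaks had 117 of 238 above that median (49.2%), 6.10 points below the distal share (exact adjusted p = 0.278). The distal share of the set was 30% (76 of 253, Wilson interval 24.7 to 36%) in the strongest of 5 groups of nearly equal size by signal, 27.4%, 27.4% and 29% in the next 3, and 18.2% (46 of 253, 13.9 to 23.4%) in the weakest. Among the 100 strongest peaks, 30 were distal, 48 promoter and 14 intronic. In the whole set 26.4% were distal, 49.3% promoter, and 238 of 1262 intronic. These tests take peaks of 1 pooled set as their units, so they describe this set and not a sample of worms.

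Both replicates listed nearly all distal peaks. All 333 overlapped a listed peak of replicate 1 and 332 one of replicate 2, but those lists hold background peaks and the set was kept for reproducibility, so this overlap was largely fixed in advance. Of the distal peaks, 210 of 333 (63.1%, Wilson interval 57.8 to 68.1%) were among the 1262 strongest of each replicate, against 341 of 622 promoter peaks (54.8%, 50.9 to 58.7%) and 58.4% of the whole set. The 8.24-point difference missed the threshold (Fisher's exact p = 0.0161, adjusted 0.0558). Intronic peaks had 146 of 238 (61.3%, exact adjusted p = 0.830). Within the class this share follows the signal by construction, since the pooled signal comes from the same replicates. It was 100% in the strongest of 5 groups of distal peaks by signal (67 of 67, signals 79.6 to 195.0) and 16.4% in the weakest (11 of 67, signals 42.9 to 49.13).

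Single sites differed widely between the replicates. Some had signals above the set median of 56.3. Those nearest to W09D10.4 (59.6) and ZC513.14 (73.9) ranked 6032 and 3125 in replicate 1, and 122 and 76 in replicate 2. Weaker sites did so too. The peak nearest to T06D10.3 (signal 43.6) ranked 329 in replicate 1 and 25637 in replicate 2, and the one nearest to F40H3.1 (48.7) ranked 170 and 23030. The distal peak nearest to Y47G6A.19 (44.2) ranked 579 in replicate 1 and had no overlapping peak in replicate 2. Another 5 distal peaks, nearest to col-184, egl-27, ftn-2, nsy-4 and cutl-21, were outside the 1262 strongest of both replicates and were kept in the pooled set. Neither replicate was favoured, with 171 of 332 peaks ranked higher in replicate 1 and 161 in replicate 2. Spearman's rho of the 2 replicate signals across the 332 peaks was 0.305, as a description only, since all were chosen on the pooled signal.

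**Figure D2:**
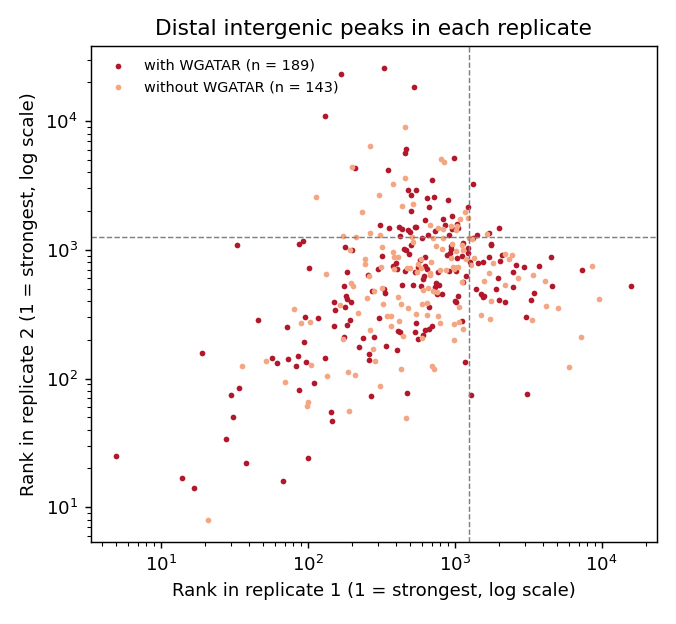
Rank of each of the 332 distal peaks found in both replicate lists, replicate 1 on the horizontal and replicate 2 on the vertical axis (log axes, 1 is the strongest), coloured by WGATAR within 50 bp of the summit. Dashed lines mark rank 1262. The strongest sites lie near the diagonal and 210 peaks fall inside both lines.

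WGATAR was more frequent at distal summits than at promoter summits. Of the distal peaks, 189 of 333 had the element no more than 50 bp from the summit (56.8%, Wilson interval 51.4 to 62%), against 280 of 622 promoter peaks (45%, 41.1 to 48.9%) and 50.2% of the whole set. The difference of 11.7 points passed (odds ratio 1.6, Fisher's exact p = 6.74e-04, adjusted 0.00539). Among peaks with a signal above the median the difference was 8.50 points and did not pass (exact adjusted p = 0.299). Intronic peaks, also away from promoters, had 134 of 238 (56.3%, 50 to 62.5%), a difference of 0.454 points (odds ratio 1.02, exact adjusted p = 0.932). Base composition moved with the first comparison. Windows at distal summits had a median GC content of 41.6%, against 44.6% at promoter summits. The element was also more frequent in the flanks of distal peaks, in windows of equal size 500 bp away, at 23.3% against 18.6% in the flanks of promoter peaks. The part of this in the difference at the summits was not tested.

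Within the distal class the element was more frequent at the summit than in the flanks. Left flank windows had it in 86 of 333 peaks (25.8%), and 143 peaks held it at the summit alone against 40 in that flank alone (exact binomial adjusted p = 8.66e-15). Right flank windows had it in 69 of 333 (20.7%), with 148 peaks against 28 (exact binomial adjusted p = 1.30e-20). Of 197807 windows of 101 bp tiled over all distal intergenic sequence, 19.8% held WGATAR. Median GC content was 41.6% at the summits and 32.7% in the flanks, the tiles had 34.0%, and the part of base composition in these differences was not tested. In the 189 peaks with the element, the centre of the nearest copy lay a median of 18.5 bp from the summit, and 62 (32.8%) had one within 10 bp. The search stopped at 50 bp and many windows held several copies. Both shorten this distance, so it does not show how tightly the element sits at the summit.

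**Figure D3:**
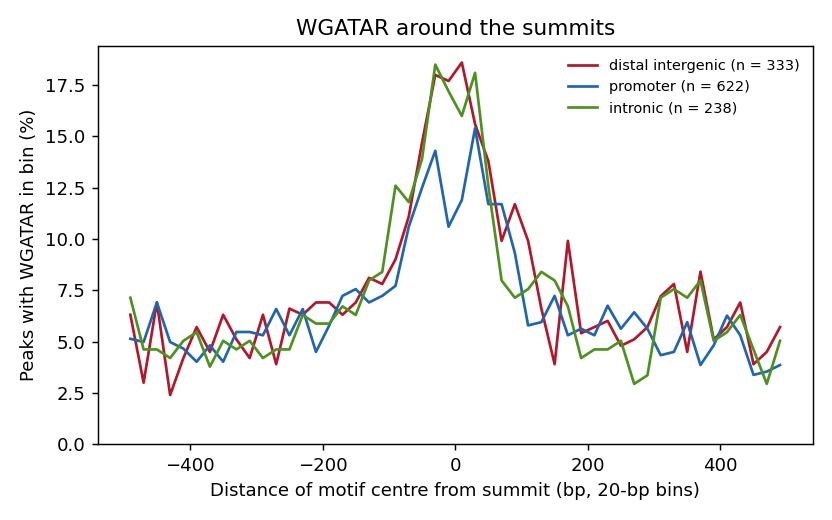
Share of peaks (%) with the centre of a WGATAR element in each 20-bp bin from 500 bp left to 500 bp right of the summit, for distal intergenic, promoter and intronic peaks. Distal and intronic peaks reach 18.6% and 18.5% near the summit, and promoter peaks reach 15.4%.

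Among the 4 forms, TGATAA was the most frequent at distal summits. It lay in 129 of 333 windows (38.7%, Wilson interval 33.7 to 44.1%), against 29.7% of promoter windows (26.3 to 33.5%), 11.4% of the distal flanks and 9.01% of the tiles. AGATAA lay in 18.3% of distal windows and 6.28% of the tiles, TGATAG in 12.3% and 3.54%, and AGATAG in 8.71% and 2.86%. The base after the element differed most from the flanks. In 317 elements at distal summits it was G in 43.2%, against 15.8% of 184 elements in the flanks. The 6 letters GATAAG were singled out after this was seen. Of the 103 distal windows that hold them, 101 also hold WGATAR. They lay in 30.9% of distal windows (26.2 to 36.1%), 19.6% of promoter windows (16.7 to 22.9%), 26.5% of intronic windows (21.3 to 32.4%) and 3.48% of the tiles.

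Many windows held several copies of the element. Of the distal peaks, 144 had no WGATAR in the window, 101 had 1, 59 had 2 and 29 had 3 or more. The median signals of these groups were 59.5, 54.6, 60.2 and 73.4, and the highest was in the group with the most copies. In the strongest of the 5 groups by signal, 46 of 67 peaks had the element (68.7%, Wilson interval 56.8 to 78.5%), and in the second 28 of 66 (42.4%, 31.2 to 54.4%). The other 3 groups had 52.2%, 63.6% and 56.7%. In a comparison added after the values were seen, 874 peaks of the pooled list below the authors' threshold met the same position rule, and 329 of them had the element (37.6%, 34.5 to 40.9%).

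The 144 distal peaks without WGATAR were set beside the others. Their median signal was 59.5, against 58.1 in the 189 with it, and 94 of 144 (65.3%) were among the strongest of both replicates, against 116 of 189 (61.4%). A ranking of all 6-letter words, which were not fixed in advance and got no test, gave GAGAGA (or TCTCTC) as the word most raised at these 144 summits. It was in 34.0% of them and in 5.21% of their flanks. Over all distal peaks it was in 104 of 333 windows (31.2%, Wilson interval 26.5 to 36.4%), against 25.1% of promoter windows (21.8 to 28.6%), 23.1% of intronic windows (18.2 to 28.9%) and 5.32% of the tiles. Both words lay in 55 distal windows, WGATAR alone in 134, GAGAGA alone in 49 and neither in 95. The R08D7.7 window above holds both.

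**Figure D4:**
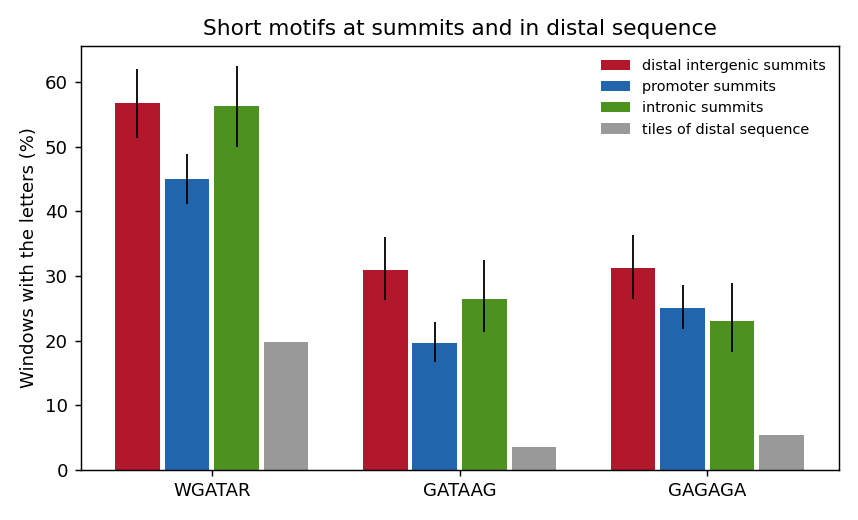
Share (%) of 101-bp windows that hold WGATAR, the word GATAAG, or, as the last group of columns, the word GAGAGA. Windows lie at the summits of distal intergenic, promoter and intronic peaks and in tiles of all distal intergenic sequence. Bars on columns are Wilson intervals. Each word is several times as frequent at distal summits (56.8%, 30.9% and 31.2%) as in the tiles (19.8%, 3.48% and 5.32%).

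Distal peaks on X carried the element less often than those on the autosomes, a comparison chosen after the values were seen and so given without a test. On X, 35 of 83 had WGATAR (42.2%, Wilson interval 32.1 to 52.9%), against 154 of 250 on the autosomes (61.6%, 55.4 to 67.4%). The tiles ran the other way, with 21.2% on X and 19.4% on the autosomes. Promoter peaks had 40.8% on X and 46.1% on the autosomes, and intronic peaks 62% and 54.8%. GAGAGA was in 21.7% of the distal windows on X and 34.4% of those on the autosomes, and neither word was in 36 of 83 distal windows on X (43.4%) and 59 of 250 on the autosomes (23.6%). Single autosomes ran from 53.5% with WGATAR on I to 70.2% on V.

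Density was taken per Mb of distal intergenic sequence, 21.7 Mb or 21.6% of the genome, so that chromosomes with wider gaps could be compared. X had 83 of the distal peaks (24.9%), against 125 of 622 promoter peaks (20.1%) and 22.4% of the whole set, and the share did not differ past the threshold from promoter peaks (Fisher's exact adjusted p = 0.200) or intronic peaks (21.0%, 0.421). It passed against promoter peaks with the wider promoter window (exact adjusted p = 0.0191) and without replicate 1 (0.0472). X also held 24% of all distal sequence. Per Mb of it, X had 16 distal peaks (exact Poisson interval 12.7 to 19.8) and the autosomes 15.2 (13.4 to 17.2). Promoter windows had 31.1 peaks per Mb on X (25.9 to 37.1) and 21.5 on the autosomes (19.6 to 23.5). Distal density was lowest on IV at 11.3 (8.35 to 14.9) and V at 11.6 (8.54 to 15.5), and highest on III at 20.9 (15.6 to 27.4). With each chromosome cut into 3 parts of equal length, the middle part had 20.5 distal peaks per Mb (17.3 to 24.2) and the outer parts 13 (11.2 to 15). These intervals cover counting error only.

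**Figure D5:**
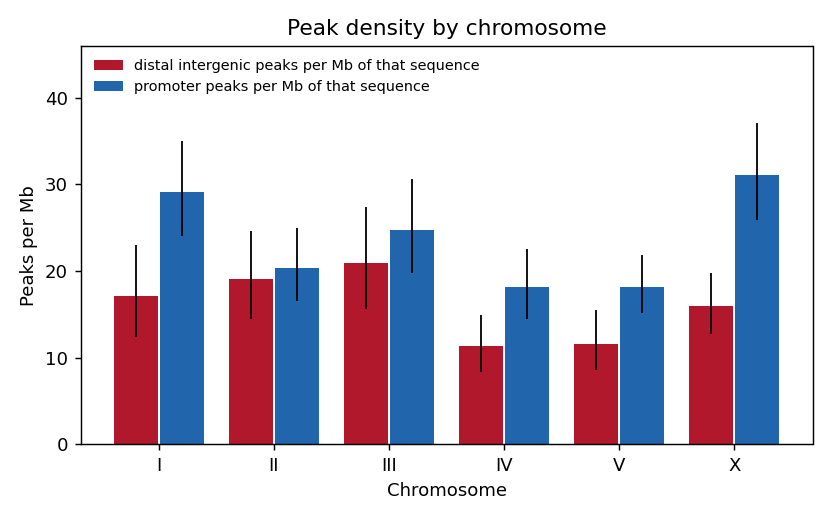
Distal intergenic peaks per Mb of distal intergenic sequence (left columns) and promoter peaks per Mb of promoter windows (right columns) on each chromosome, with exact Poisson intervals. On X the distal density is 16 and the promoter density 31.1, while on II they are 19.1 and 20.4.

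The distance from the nearest start, which the rule bounds, is given as a description. Its median was 2314 bp (quartiles 1489 and 3779), 46 peaks lay over 5000 bp away and 8 over 10000 bp. Upstream of the nearest start lay 237 peaks (71.2%) and downstream 96. The rule removes gene bodies, which lie downstream of starts, as well as promoter windows, so it shapes this share. The upstream share of all distal sequence was not taken. The 5 peaks under 1 kb away were all downstream of the nearest start, which the rule fixed in advance by leaving out the 1000 bp upstream. The median signal was 57.1 in the 130 peaks at 1 to 2 kb, 58.9 in the 126 at 2 to 4 kb and 60 in the 72 beyond 4 kb. In these groups the element was in 53.1% (Wilson interval 44.5 to 61.4%), 62.7% (54 to 70.6%) and 52.8% (41.4 to 63.9%). Just outside the upstream edge of a promoter window were peaks 1005 bp from cah-4 (signal 64.2), 1018 bp from ahcy-1 (73.3), 1029 bp from mtm-3 (77.6), 1047 bp from F53F1.4 (53.7) and 1056 bp from arrd-14 (45.2). Just inside were promoter peaks 1000 bp from ttr-41 (68.0), 999 bp from fbxb-58 (78.3), 995 bp from ain-1 (74.6), and 986 bp from F26A3.4 (52) and nhr-62 (54.3).

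The direction of the neighbouring genes gave the surroundings of each site. Between genes transcribed away from each other lay 112 distal peaks, or 16.6 per Mb of distal sequence of that kind (exact Poisson interval 13.7 to 20). Between genes in the same direction lay 187 (16.2 per Mb, 13.9 to 18.6), and between genes transcribed toward each other 33 (9.95 per Mb, 6.85 to 14). The element was in 58.9%, 55.1% and 60.6% of the peaks in these 3 settings. The nearest gene of any kind was a protein-coding gene for 177 peaks, a gene classed as ncRNA for 90, a piRNA gene for 29 and a microRNA gene for 11. The microRNA genes included mir-47, 682 bp from the ekl-5 summit, and mir-75 (132 bp, signal 55.3) and mir-79 (239 bp, 60.1).

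Most distal peaks were the only distal peak between their neighbouring protein-coding genes. Peaks of other classes in the same gaps were not counted, so such a site can still have another ELT-3 peak nearby. The 333 peaks fell into 277 gaps between protein-coding genes, of which 236 held 1 distal peak and 34 held 2. The median gap was 6494 bp counted once per peak. Another 3 gaps held 3 distal peaks each and 4 held 4 or more. The gaps with 3 lay between pde-2 and R08D7.7 (signals 52.1 to 190.2, 3 with the element), between Y37D8A.4 and Y37D8A.5 (49.7 to 147.8, 2 with it) and between M163.1 and fbxa-141 (62.2 to 88.2, 1 with it). The 18574-bp gap between snt-1, for synaptotagmin, and egl-27, for a protein with a GATA-type zinc finger, held 6 distal peaks within 9122 bp, 4 of them with WGATAR. The strongest of these had a signal of 85.6 (ranks 153 and 339) and the weakest 43.7. The 35563-bp gap between irld-18 and dmd-6, a gene of the DM domain family of transcription factors, held 6 peaks with signals from 45.7 to 143.1, 5 of them with the element. This gap (IV:14581040 to 14616602) also holds 169 annotated piRNA genes, and a piRNA gene was the nearest gene of any kind for 4 of the 6 summits. Another DM domain gene, dmd-7, bordered a gap with 4 peaks (signals 56.3 to 104.9, 3 with the element).

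The 4 peaks between mxl-3 and C49F8.15 had no WGATAR in the window, with signals of 79.4, 64.5, 50.1 and 43.4. The gene mxl-3 encodes a Max-like factor and lies on X. On the same chromosome, mdl-1, for a Mad-like partner of Max-like proteins, had distal peaks on both sides. Between R03E9.2 and mdl-1 lay the R03E9.2 peak shown above, 5871 bp from mdl-1, and a second peak (57.1), and beyond the other end of mdl-1 lay one with a signal of 105.8. All 3 carried the element. Of the 5 peaks farthest from any protein-coding start, those nearest to dmd-6 (17084 bp), irld-18 (13342 bp), snt-1 (11549 bp), the homeobox gene alr-1 (11536 bp, signal 97.5) and K01F9.2 (11466 bp, signal 46.9), all had it. The element was in 56.8% of all 333 distal peaks and in 52.8% of the 72 beyond 4 kb.

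Gene groups were counted to describe which genes lie next to distal peaks. Of 19973 protein-coding genes, 293 (1.47%) had the start nearest to a distal peak, and 37 of those 293 also had a promoter peak. Among all protein-coding genes, 750 (3.76%) had a promoter peak. Taking the genes on either side of each summit gave 538 (2.69%). Nuclear hormone receptors, ligand-regulated transcription factors of which the worm has many, had 15 of 275 (5.45%), led by nhr-162 (131.4), nhr-35 (105.3), nhr-48 (103.1) and nhr-46 (90.3). Their ranks differed between the replicates, as at nhr-46, which ranked 467 in replicate 1 and 49 in replicate 2. Genes of Wnt, TGF-beta, Notch and EGF signalling had 4 of 54 (7.41%). They were lon-1 (79.6) and sma-9 (73.9), which act in body size control, ark-1 (43.9), a negative regulator of EGF signalling, and osm-11 (43.4), a Notch co-ligand gene. All 5 distal peaks nearest to these 4 genes, 2 of them at osm-11, were without WGATAR, as were 144 of all 333 (43.2%). This was noticed after the values were seen. The genes sma-9 and osm-11 lie on X, where only 35 of 83 distal peaks (42.2%) had the element. These counts had no test. Genes beside wide gaps have more room for a distal peak, and the part of this was not tested.

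Apart from the cuticle collagens, the epidermal gene lists are small. None of the sites nearest to genes of the epidermal lists was among the 20 strongest. The gene die-1, whose site was (132.5), is in none of these lists. Moulting and cuticle assembly genes had 4 of 66 (6.06%): mlt-7, for a peroxidase needed to moult (72.8, ranks 323 and 501), lrp-1, a megalin-type receptor gene (59.8), cut-2, for a cuticle protein (53.3), and cutl-21 (42.9). Epidermal and seam transcription factors had 2 of 23 (8.70%), egl-27 (56.5) and ztf-6 (50.6), and egl-27 was also the single GATA-type gene, of 13 (7.69%). Cuticle collagens had 3 of 177 (1.69%), col-10 (51.1), col-98 (47.1) and col-184 (46.1), beside the 1.47% of all genes. Ranks of the collagen peaks ran from 300 to 3408. Hedgehog-related genes had 0 of 59.

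The other lists ran from none to 10% of their genes. Ribosomal protein genes had 0 of 80. Cytochromes P450 (0 of 74) and UDP-glucuronosyltransferases (0 of 67), both of detoxification, had none either. Chemoreceptors had 4 of 1300 (0.308%), led by str-144 (83.5) and srd-7 (59.6), and F-box and MATH/BATH genes had 1 of 388 (0.258%), fbxa-141 (62.2). C-type lectins had 2 of 237 (0.844%), clec-1 (61.6) and clec-242 (45.1). Heat shock proteins had 2 of 20 (10%), hsp-25 (78.0) and hsp-12.1 (45.6), both small heat shock protein genes, and antioxidant and glutathione transferase genes had 1 of 73 (1.37%), the superoxide dismutase gene sod-4 (75.4). Among neuronal groups, ion channels and receptors had 1 of 227 (0.441%), the GABA receptor gene unc-49 (67.1). Neuropeptide genes had 2 of 156 (1.28%), ins-13 (115.2) and flp-19 (51.8). Guidance and adhesion genes had 2 of 86 (2.33%), zig-13 (131.1) and plx-1 (54.9). Counted on either side of a summit, these groups had 7 (3.08%), 3 (1.92%) and 6 (6.98%), beside 2.69% of all genes.

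Homeobox genes had 1 of 101 (0.990%), alr-1, the bHLH, T-box, forkhead, ETS and SOX group 0 of 79 and histones 0 of 50. On either side of a summit lay 2 (1.98%), 3 (3.80%) and 1 (2.00%) of these genes, beside 2.69% of all genes. The group of 29 bZIP genes had 1 (3.45%), mdl-1, which is itself a bHLH factor. Marker genes of body wall muscle (0 of 25), intestine (0 of 28) and pharynx (0 of 84) had none, and germline markers had 1 of 104 (0.962%), the helicase gene glh-4 (61.4). With 1.47% of all genes as background, neither a share below it nor an excess of 1 or 2 genes can be read in groups this small. The chemoreceptor list (1300 genes) and the F-box and MATH/BATH list (388) are larger. Their low shares had no test, and the part of gap width in them was not tested.

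The distal sites were mostly unique sequence. The 31 bases centred on the summit occurred once in the genome in 331 of 333 peaks. The exceptions, both on I, were nearest to Y48G8AR.8 (signal 88.7, 7 copies) and F40E3.3 (57.6, 8 copies), where reads could be assigned to the wrong copy. In 10 of the 333 (3%) the reference marked more than 50% of the window as repeat or low complexity, against 18 of 622 promoter windows (2.89%).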

How the data were processed

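ELT-3 ChIP-seq peaks of 2 biological replicates were analysed. The authors' deposited lists, per the labels and an accompanying file index, hold peaks and background of each replicate (25325 and 26500) and of pooled reads (5659), and the pooled peaks kept on irreproducible discovery rate. For aligner, caller and signal scale: not given in the sources used here. Every deposited peak carries a signal, and a deposited −log10 q-value that entered no result. Read depth is unknown, and the control was not used here.

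Positions are 1-based ce11. A summit is the start plus the deposited offset. Motifs were sought on both strands within 50 bp. Replicate values are those of the strongest overlapping peak (1 bp or more). Fisher's exact test (two-sided) compared peak classes, with Benjamini-Hochberg adjustment over 8 comparisons at 0.05, and exact binomial tests compared summits with flanks. Intervals are 95%. Named genes are nearest to the 20 strongest, the 5 farthest and the threshold peaks, and up to 4 per list (26 lists). Members and lists were chosen with earlier results of these data known. Procedures were tested on simulated data. Statistics used scipy 1.17.1 under Python 3.11.15, with tables in pandas 2.3.3 and numpy 2.4.6 and plots in matplotlib 3.10.9. Alternatives moved the promoter window, gene set, motif window and letters, overlap, replicates used and the rule for neighbouring genes.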

Additional observations from a re-analysis of the deposited data

How the results depend on the processing

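The number of distal peaks was 214 with a promoter window of 2000 bp upstream to 500 bp downstream and 184 when peaks above the median signal were taken. The other alternatives gave 277 to 418, and single replicates 337 to 345. The higher WGATAR share of distal than promoter peaks kept its direction in each of 12 alternatives and passed in all but the stronger peaks (8.50 points). The cause of that miss was not tested. The excess over the flanks passed in every alternative run. Against intronic peaks the motif difference turned to -1.63 points with a window of 500 bp upstream to 100 bp downstream, -1.73 with protein-coding genes alone, -4.39 in the stronger part and -0.337 with TGATAA alone, and ran from -0.645 to 4.42 with a single replicate. None of these passed, and the cause was not tested. Signal above the median, against promoter peaks, passed with the wider window (10.4 points), with protein-coding genes alone (7.84) and without peaks within 50 kb of elt-3 (8.28). With a single replicate it ran from -0.505 to 4.84, and against intronic peaks from -2.46 to 5.55. Presence among the strongest of both replicates, against promoter peaks, passed with protein-coding genes alone (8.08) and without the peaks near elt-3 (8.54), and against intronic peaks turned to -1.09 with the narrower window, -0.855 with the wider one and -2.48 in the stronger part. The share on X, against promoter peaks, passed with the wider window (9.29 points), and ran from 4.04 to 6.89 with a single replicate. By nearest start, 9 of the 26 gene lists had a share above that of all genes, and by genes on either side of the summit 12 did. No paired analysis was possible because there was 1 group. Unknown depth limits what the weakest peaks can show.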
